A study of Rattus norvegicus with 6 samples.

Results

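The collagen gene family was followed by RNA sequencing in Sprague Dawley rat fetuses, in islets taken on day 22 of gestation. Members were the genes whose symbol is Col, a type number, a and a chain number, and whose raw count averaged at least 20 over the 6 libraries. Of 17321 genes counted, 27 had such a symbol and 22 of these reached that mean. They comprise 8 fibrillar chains, 1 chain of type IV (the basement membrane type) and 13 chains of other types. Just inside the limit lay Col11a2 and Col23a1, with mean counts of 27.3 and 39.0. Just outside lay Col4a3 and Col6a4, with 17 and 12.2, and Col4a4, Col1a2 and Col2a1 had 9.83, 5.5 and 5.17.

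The libraries came from 3 dams. Each dam had glucose infused into the left horn of the uterus (4 mg/min, 48 h, starting on day 20), and littermates in the right horn were the control. For a library, 2 pancreata were pooled, and the hand-picked islets from the collagenase digest spent 24 h in culture (RPMI, 5 mM glucose) ahead of RNA isolation. There was thus 1 library labelled high glucose and 1 labelled control per dam, called pairs 1 to 3, and horn side cannot be told apart from glucose. File names and sample titles disagree on the horn in 6 of 6 libraries, each giving the opposite letter. The treatment labels set every direction given here, and the file names would turn each one around.

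Collagens are proteins of 3 intertwined chains that form the scaffold of connective tissue. Fibrillar types build the fibres of the stroma, type IV builds the sheet under epithelia and around vessels, and the remaining types coat, anchor or connect these. In the pancreas fibrillar collagens are made mainly by mesenchymal cells (fibroblasts, stellate cells), while much of the islet basement membrane is laid down by vessel cells. In these bulk libraries fewer cells of a type and less RNA per cell cannot be told apart.

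Total counts lay between 18077841 and 30993532 per library. Beta cell markers, the 6 counted of those listed (Ins1 and Ins2 among them), summed to between 4906 and 22670 CPM (counts scaled to a common total, on library sizes scaled by TMM, the trimmed mean of M-values). The 11 counted mesenchyme markers, among them Pdgfra, Vim and Dcn, summed to between 4274 and 7557 CPM, so every library labelled as islets held mesenchyme marker RNA. In pairs 1 to 3 the mesenchyme sums were 4274, 7557 and 7381 CPM in control against 5921, 6585 and 5431 CPM in high glucose. High glucose was above control in pair 1 and below it in pairs 2 and 3. None of the 12 marker lists held a counted gene at 0 in all libraries.

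One chain of type I collagen could not be measured. Col1a2 encodes the partner chain of type I collagen, yet it had 1 to 12 counts per library, against 223391 to 413770 for Col1a1. In the annotation used for counting, Col1a2 stands at 2 places on rn6 chromosome 4, at 29529854 to 29564781 and at 31534225 to 31569152. Each place holds 52 exons, and a single offset of 2004371 bases maps every exon of one onto the other. Only read pairs with a mapping quality of at least 10 were counted, and whether that removed the Col1a2 reads was not tested. It was the only one of the 27 genes with more than 1 place, against 3.75% of all genes counted (places over 200 kb apart taken as separate). Col1a2 is therefore not a member, and no type I chain ratio is given. Among the collagen genes absent from the 27 symbols counted were Col4a2, Col6a1, Col6a3 and Col12a1, so they could not be analysed.

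For 18 of the 22 members RefSeq gave the bases before the transcription start (build GRCr8). The last 180 of these bases are shown 5′ to 3′ for Col4a1, which varied least among the 8 members with the highest levels, and for Col7a1 and Col26a1, which had the smallest p-values. Capitals mark the CCAAT box, the TATA box letters TATAAA, the GC box letters GGGCGG, or the AP-1 type letters TGANTCA, on either strand. A motif on the opposite strand reads as its reverse complement.
Col4a1: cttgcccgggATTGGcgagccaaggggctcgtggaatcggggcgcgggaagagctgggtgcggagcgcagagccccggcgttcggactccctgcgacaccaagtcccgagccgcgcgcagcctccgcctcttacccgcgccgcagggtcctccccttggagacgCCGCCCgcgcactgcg
Col7a1: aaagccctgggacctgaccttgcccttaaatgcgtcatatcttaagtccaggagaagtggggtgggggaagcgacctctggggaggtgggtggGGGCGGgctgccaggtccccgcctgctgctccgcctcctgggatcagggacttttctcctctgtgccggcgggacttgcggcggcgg
Col26a1: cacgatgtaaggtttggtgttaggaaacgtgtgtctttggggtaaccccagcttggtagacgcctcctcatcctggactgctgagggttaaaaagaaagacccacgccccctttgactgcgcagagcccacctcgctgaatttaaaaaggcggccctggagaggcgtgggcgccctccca
These are chr16:84885417-84885596, chr8:118483184-118483363 and chr12:25429216-25429395 of GRCr8, each on the plus strand. In the 250 bases before the start, GGGCGG was found in 11 of the 18 members and in 32.4% of the 27457 promoters in the table. CCAAT was found in 4 of 18 against 34.3%, TATAAA in 2 of 18 against 13.1%, and TGANTCA in 0 of 18 against 6.4%. Overlapping matches of a motif were each counted. The shown Col26a1 window holds none of the 4 motifs, which says only that these letters are not in it.

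Collagen messages were abundant. Levels between genes were compared in TPM ( counts per exon length, scaled to a fixed sum), as means over the 6 libraries. Col3a1, the type III chain of soft tissues, had a level of 4110 TPM and ranked 18 among all genes, and Col1a1 had 3151 TPM and ranked 24. Col6a2, a chain of the beaded filaments of type VI, followed at 1411 TPM and Col4a1 at 827.5 TPM. Below these came the type V chains that limit fibril width, Col5a2 at 408.6, Col5a1 at 312.1 and Col5a3 at 144.5 TPM, with the basement membrane zone collagen Col18a1 at 255.1 TPM between them. The other 14 members lay between 0.267 and 87.3 TPM. The cartilage chains Col9a1, Col9a2, Col11a1 and Col11a2 were all at or below 3.25 TPM, and Col2a1, the main cartilage collagen, had a mean count of 5.17 and was no member. Col1a1 and Col3a1 held 61.4% to 72.9% of the counts of the 22 members in a library. That total lacks Col1a2 and all collagen genes absent from the symbols counted, Col4a2, Col6a1, Col6a3 and Col12a1 among them.

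**Figure D1:**
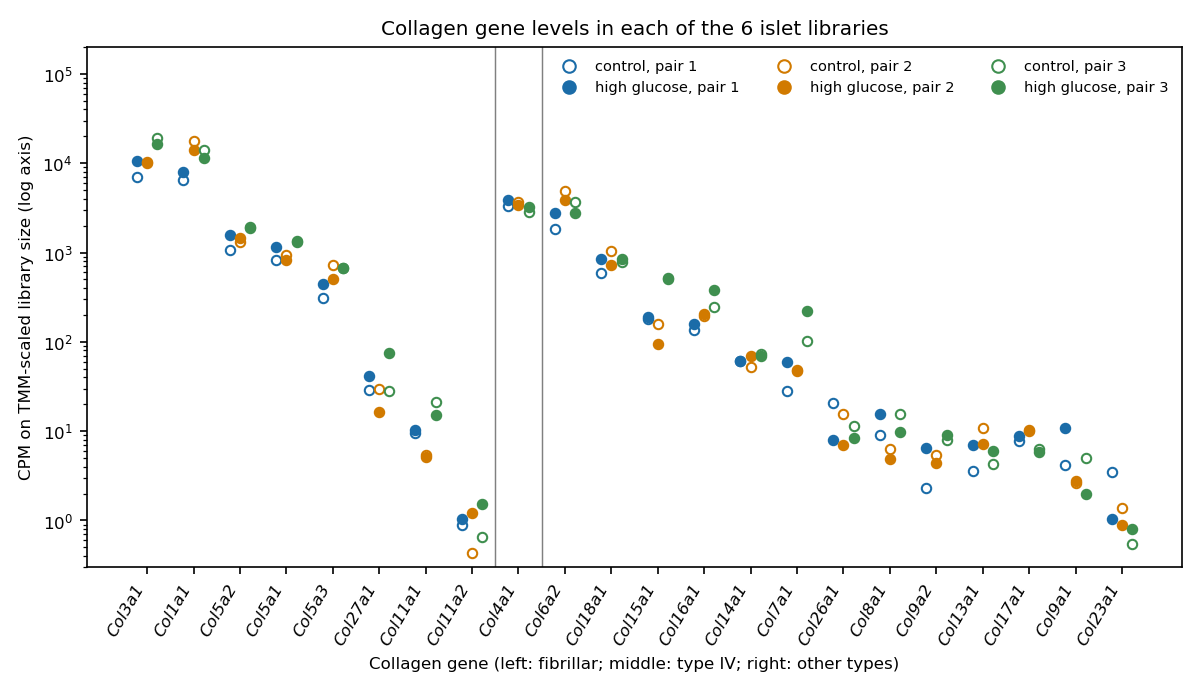
Level of each of the 22 collagen genes in the 6 libraries, in CPM on a log axis, with open circles for control, filled circles for high glucose and colours for the dam pairs; vertical lines part fibrillar, type IV and other types. Levels run from below 1 CPM for Col11a2 to 18930 CPM for Col3a1, and open and filled circles overlap between groups for all members except Col11a2 and Col26a1.

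Whether the glucose infusion went with a change in collagen genes was asked within the dam pairs. None of the 22 members passed (edgeR quasi-likelihood test with the dam as a block, Benjamini-Hochberg adjusted p below 0.05 over 12276 genes). The share of all tested genes that passed was 0.0163%. At an unadjusted p below 0.05 stood 2 members, Col7a1 (higher) and Col26a1 (lower), where 4.82% of all genes tested did so. Of these, 1 member (Col26a1) also kept one direction in all 3 pairs, beside 4.54% of all genes tested. The smallest adjusted p of a member was 0.527. With DESeq2, which called 0.863% of all genes, 0 members passed as well. The fitted log2 differences, high glucose minus control, ran from -1.0 to 0.94, and 18 of 22 were smaller than 0.5 in size. The share of all genes below that size is not given, so this count describes the members only. The median of the fitted differences was 0.08 over the members, beside 0.00 over all genes tested. It was -0.08 without pair 1, 0.20 without pair 2 and 0.13 without pair 3. A p that misses the threshold does not show that the levels were alike.

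Single pairs moved in different directions. In pair 1, 20 of 22 members were higher in high glucose, with a median log2 difference of 0.48, while 50.1% of all genes tested were higher. In pair 2 only 6 were higher and the median was -0.24, with 52.2% of all genes higher. In pair 3 the split was 11 to 11 at a median of -0.01, with 48.7% of all genes higher. One direction in all 3 pairs was seen for 3 members: Col11a2 and Col16a1 were higher and Col26a1 lower. Of all genes tested, 11.7% were higher and 11.3% lower in all 3 pairs. The groups did not overlap in CPM for 2 members, Col11a2 and Col26a1, beside 3.31% of all genes tested. Col11a2 averaged under 20 counts in control and reached the limit only through the high glucose libraries, so neither count supports a statement about the members.

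**Figure D2:**
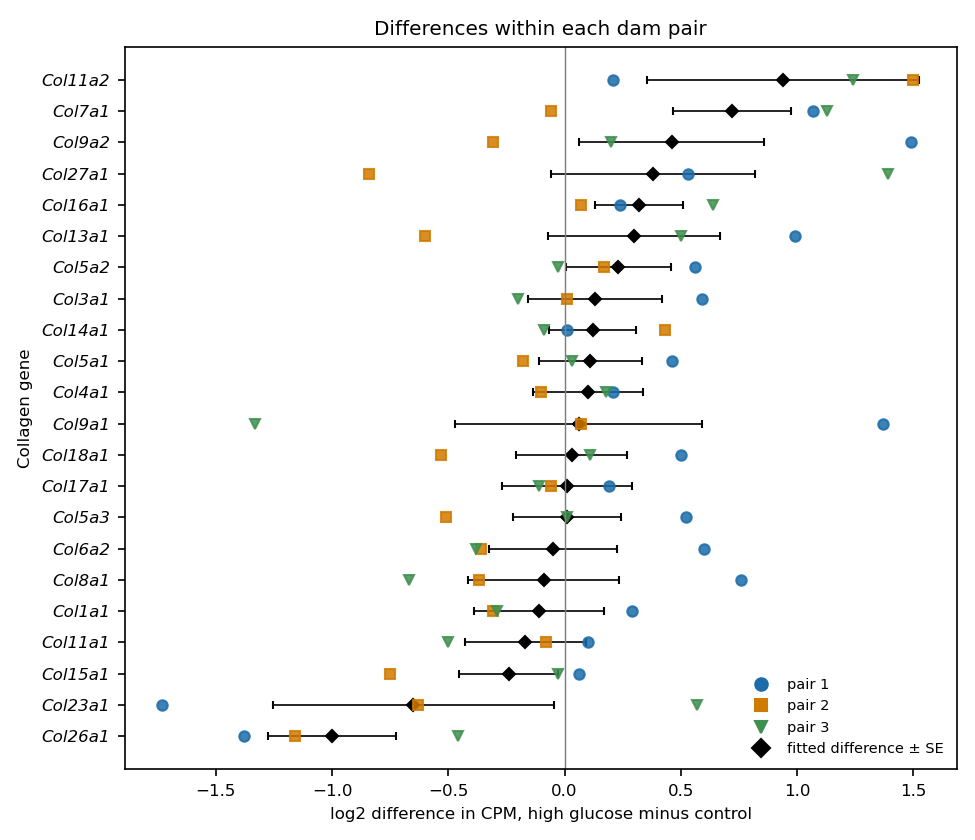
Log2 difference in CPM (high glucose minus control) of each collagen gene in pairs 1, 2 and 3 (coloured symbols) and the fitted difference with its standard error (black). Pair 1 lies to the right of 0 for 20 of 22 genes and pair 2 to the left for 16, and Col26a1 at the bottom is left of 0 in all 3 pairs.

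Among the fibrillar chains, which give stroma its tensile strength, the dam means of the 2 most abundant spanned more than their pair differences. The edgeR test between dams did not pass for either (adjusted p = 0.079 for Col1a1 and 0.0893 for Col3a1). Col1a1 (rn6 chromosome 10, 82745801 to 82762790) measured 6473, 17570 and 14110 CPM in the control libraries of pairs 1 to 3 and 7914, 14120 and 11520 CPM in high glucose. Both libraries of pair 1 lay below all others, and the groups overlapped. The fitted log2 difference was -0.11 (SE 0.280, edgeR adjusted p = 1). Col3a1 (chromosome 9, 52023295 to 52059221) measured 6948, 10180 and 18930 CPM in control against 10480, 10230 and 16490 CPM in high glucose. Here pair 3 stood highest in both groups. The fitted log2 difference was 0.13 (SE 0.287, edgeR adjusted p = 1). On the TPM scale 6 of 22 members turn direction in pair 3: Col3a1, Col1a1, Col5a2, Col15a1, Col14a1 and Col17a1. The share of all genes that turn in pair 3 is not given. In that pair Col3a1 had 5981 TPM in control against 6462 in high glucose, and Col1a1 had 3650 against 3695. The summed beta cell markers of that pair were 22670 CPM in control against 4906 CPM in high glucose, and their part in this was not tested.

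The type V chains, which are built into type I fibrils and limit their width, overlapped between the groups as well. Col5a2 (chromosome 9, 52091088 to 52238735) measured 1072, 1299 and 1938 CPM in control against 1579, 1463 and 1900 CPM in high glucose, a log2 difference of 0.23 (SE 0.226, edgeR adjusted p = 1). Col5a1 (chromosome 3, 6430591 to 6578876) measured 826.3, 937.9 and 1317 CPM in control against 1139, 828.5 and 1346 CPM in high glucose. Both were highest in pair 3, where control and high glucose differed little in CPM. In TPM the same pair had 480.8 against 584.6 for Col5a2 and 357.9 against 454.0 for Col5a1. Col5a3 (chromosome 8, 21786324 to 21831668) was instead highest in the control library of pair 2, at 721.7 CPM, and lowest in that of pair 1, at 310.4 CPM. Its pair differences were 0.52, -0.51 and 0.01. The summed mesenchyme markers moved with Col1a1 in sign in each pair. Of the 11 markers, 2 were higher (Pdgfra and Barx1) and 0 lower in 3 of 3 pairs. Vim alone gave 2042 of the 4274 CPM of the sum in the control library of pair 1. The part of the mesenchyme markers in these differences was not tested. With libraries scaled to those markers instead, an alternative chosen after seeing the data, 0 of 22 members passed and the log2 difference was -0.05 for Col1a1 and 0.19 for Col3a1.

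The 3 fibrillar chains with low counts behaved less evenly. Col27a1, a fibrillar chain best known from cartilage, stood at 28.7, 29.4 and 28.3 CPM in the control libraries and at 41.6, 16.4 and 74.3 CPM in high glucose. Control libraries were thus nearly equal, while those of high glucose lay on both sides of them. Col11a1, which nucleates fibrils with type V, had 9.56, 5.38 and 21.3 CPM in control against 10.2, 5.08 and 15.1 CPM in high glucose. The order of the dams was the same in both groups. Col11a2 had 31, 7 and 19 raw counts in control against 33, 25 and 49 in high glucose, and its log2 difference of 0.94 (SE 0.585, edgeR adjusted p = 1) rests on these few reads.

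Col4a1, the only type IV chain among the members (chromosome 16, 83522162 to 83632153), varied least among the 8 members with the highest levels. It measured 3319, 3649 and 2875 CPM in control against 3829, 3411 and 3263 CPM in high glucose. Its dam means spanned 0.22 on the log2 scale, against 1.14 for Col1a1 and 1.05 for Col3a1. The log2 difference was 0.10 (SE 0.236, edgeR adjusted p = 1), with 0.21, -0.10 and 0.18 in the pairs. Below the limit on counts, Col4a3 had 1 to 34 and Col4a4 0 to 23 counts per library. These chains of kidney and lung basement membranes lie head to head on chromosome 9, Col4a4 ending at 88357183 on the minus strand and Col4a3 starting at 88357751 on the plus strand.

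Col18a1 and Col15a1 encode multiplexins, collagens bound to basement membranes of vessels and epithelia. Col18a1 (chromosome 20, 12225202 to 12332858) measured 592.1, 1042 and 787.3 CPM in control against 835.5, 720.2 and 850.5 CPM in high glucose. Its pair differences were 0.50, -0.53 and 0.11. Col15a1 (chromosome 5, 62840360 to 62950240) measured 179.3, 160.1 and 514.7 CPM in control against 187.3, 95.2 and 504.7 CPM in high glucose. Both libraries of pair 3 were far above the others for Col15a1, and within pairs only pair 2 differed by more than 0.1, at -0.75. The 8 endothelial markers, all counted, summed to 800.6, 950.8 and 900.6 CPM in control against 813.9, 343.6 and 749.7 CPM in high glucose. Their largest difference was in pair 2 as well, and their part in the result was not tested.

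Among the other types, Col6a2 was the most abundant. Col6a2 (chromosome 20, 12773520 to 12801179) measured 1823, 4938 and 3643 CPM in control against 2772, 3849 and 2800 CPM in high glucose, with pair differences of 0.60, -0.36 and -0.38. Those signs were the ones of Col1a1 and of the summed mesenchyme markers. Col16a1 (chromosome 5, 148257593 to 148311645), a collagen that attaches to fibril surfaces, measured 135.4, 195.3 and 246.3 CPM in control against 160.1, 205.1 and 385.1 CPM in high glucose. It was higher in each pair, but the groups overlapped and the log2 difference of 0.32 did not pass (SE 0.191, unadjusted p = 0.125, edgeR adjusted p = 1). Without pair 3 it was 0.16. Col14a1, another fibril-surface collagen, held nearly one level, between 52.1 and 73.6 CPM over the 6 libraries.

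Col7a1 was the only member higher in high glucose at an unadjusted p below 0.05. It forms the anchoring fibrils under stratified epithelia (chromosome 8, 117694605 to 117726844). It measured 28.0, 48.6 and 101.2 CPM in control against 58.9, 46.7 and 221.8 CPM in high glucose. High glucose was above control in pairs 1 and 3, with log2 differences of 1.07 and 1.13, but not in pair 2, at -0.06, and the groups overlapped. The fitted difference of 0.72 did not pass over all genes (SE 0.253, unadjusted p = 0.0188, edgeR adjusted p = 0.836). Without pair 3 it was 0.51 and without pair 2 it was 1.1. The 5 counted duct markers summed to 1240, 1459 and 3578 CPM in control against 2647, 2026 and 5344 CPM in high glucose, and their part in the result was not tested. Col17a1, the transmembrane collagen of the hemidesmosome, showed no such pattern, at 7.71, 10.4 and 6.24 CPM in control against 8.77, 9.96 and 5.79 CPM in high glucose.

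Col26a1 was the member with the smallest p. It is a short collagen first described in testis and ovary (chromosome 12, 22834866 to 22980603). Counts were 722, 250 and 336 in control against 255, 142 and 268 in high glucose. In CPM these were 20.9, 15.5 and 11.5 in control against 8.02, 6.93 and 8.35 in high glucose, so every control library lay above every high glucose library. Means were 15.9 ± 4.75 and 7.76 ± 0.739 CPM (SD, n = 3). The fitted log2 difference of -1.0 did not pass over all genes (SE 0.274, unadjusted p = 0.00425, edgeR adjusted p = 0.527), and it was lower in 3 of 3 pairs. All 6 leukocyte markers, among them Ptprc and C1qa, were also lower in every pair. Their sum was 715.0, 576.3 and 649.5 CPM in control against 467.3, 439.1 and 272.6 CPM in high glucose, and its part in the Col26a1 difference was not tested. Erythroid markers were lower as well, 4 of 4 tested in all 3 pairs, with a median log2 difference of -3.48. The 5 counted summed to 1395, 1395 and 360.7 CPM in control against 143.5, 590.8 and 82.95 CPM in high glucose. Among them Car1, a carbonic anhydrase gene of red cells, passed (edgeR adjusted p = 0.000793). The part of these markers in the Col26a1 difference was not tested either.

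The remaining members changed sign between pairs. Col9a1, which decorates cartilage fibrils, had pair differences of 1.37, 0.07 and -1.33, and its partner chain Col9a2 of 1.49, -0.31 and 0.20. Neither kept its sign. The transmembrane collagen Col13a1 had 0.99, -0.60 and 0.50, and Col23a1, also a transmembrane type, -1.73, -0.63 and 0.57 on a mean of 39.0 counts. The network-forming chain Col8a1 had 0.76, -0.37 and -0.67, with the signs seen for Col1a1 and Col6a2. Below the limit on counts, Col6a4 had 65, 2 and 5 counts in control against 1, 0 and 0 in high glucose, which rests mostly on 1 library.

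**Figure D3:**
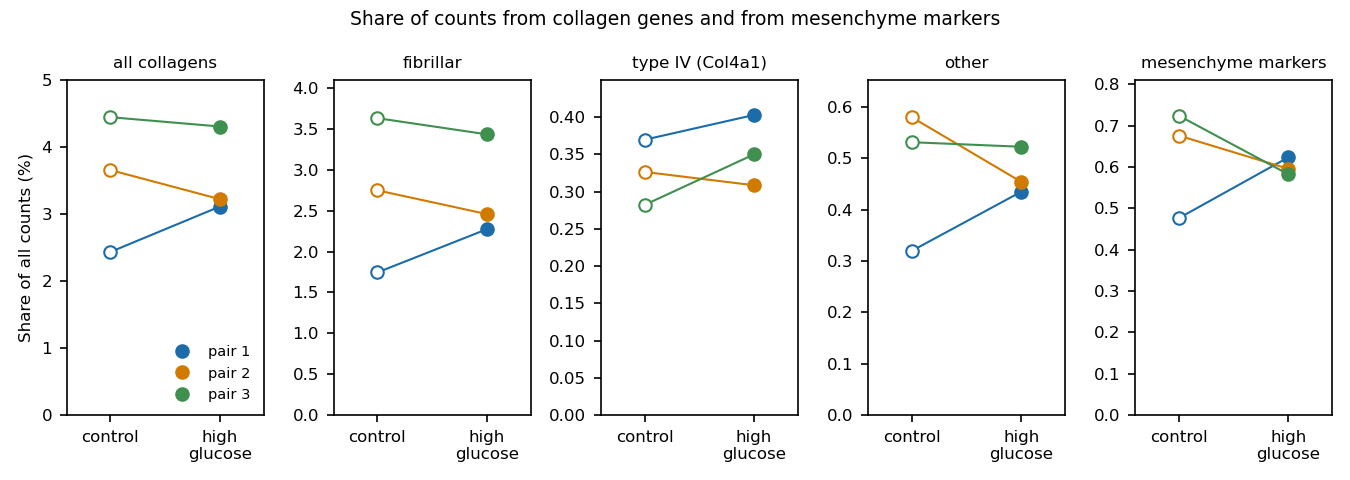
Share of all counts in each library, in percent, that came from all 22 collagen genes, the fibrillar chains, Col4a1, the other types, and the 11 mesenchyme markers; lines join the control and high glucose library of a dam. The share of all collagens is higher in high glucose in pair 1 and lower in pairs 2 and 3, as is that of the mesenchyme markers.

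As a share of all counts, the 22 genes held 2.43%, 3.66% and 4.45% in the control libraries of pairs 1 to 3 and 3.11%, 3.22% and 4.31% in high glucose. The means were 3.51% ± 1.01 and 3.55% ± 0.660 (SD, n = 3), a difference smaller than the spread between libraries of a group. Pair differences were 0.678, -0.435 and -0.139 percentage points. Fibrillar chains made up most of this, with 2.71% ± 0.944 in control against 2.72% ± 0.623 in high glucose. Their share was higher in pair 1 and lower in the other pairs.

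Ratios between chains within a library do not depend on the library's scaling. Per exon length, Col3a1 stood to Col1a1 at 1.31, 0.708 and 1.64 in control and with high glucose at 1.62, 0.885 and 1.75. The ratio was higher in high glucose in each of the 3 pairs, by 0.30, 0.32 and 0.09 on the log2 scale. That difference, 0.24 on average, was smaller than the gap between dams, and pair 2 alone had more Col1a1 than Col3a1. The exact two-sided sign-flip p was 0.25, the smallest the design allows (adjusted p = 0.75 over 3 ratios by Benjamini-Hochberg). Col5a1 stood to Col5a2 at 0.621 to 0.845 over the 6 libraries, and the pair differences of -0.09, -0.35 and 0.06 changed sign. Col5a3 to Col5a1, a ratio chosen after the values were seen, was 0.344 and 0.357 for pair 1, 0.705 and 0.562 for pair 2, then 0.467 and 0.461 for pair 3 (control first).

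**Figure D4:**
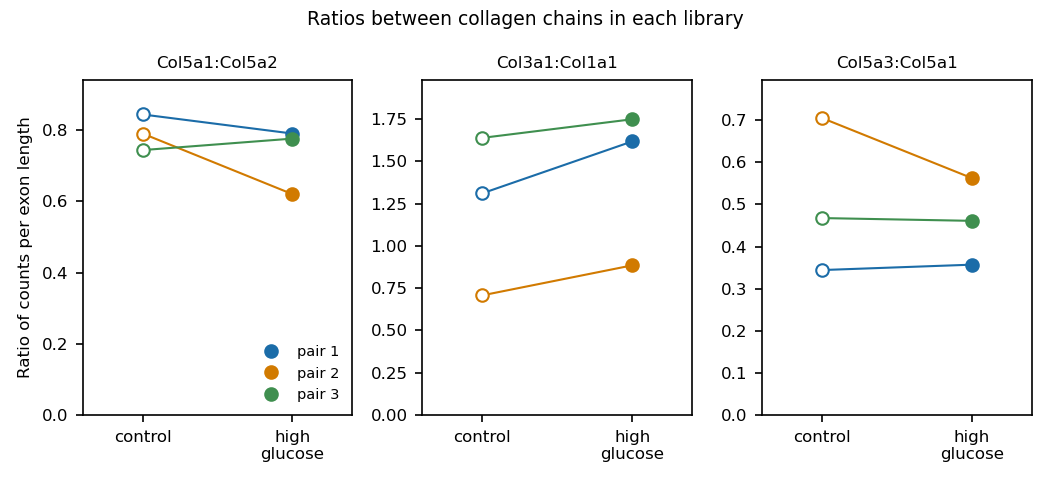
Ratio of counts per exon length between 2 collagen chains in each library, with lines joining the libraries of a dam. The ratio of Col3a1 to Col1a1 is higher in high glucose in all 3 pairs, between 0.708 and 1.75, while pair 2 stays below 1.

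The pairs themselves differed. A dam effect here is a difference between pairs, and the dam cannot be told apart from anything else that differed between them. Pair 2, for instance, had the smallest total counts, 18077841 in control and 22643755 in high glucose. In the same fit, 4 of 22 members had a dam effect at an adjusted p below 0.05, beside 22.8% of all genes tested. The 4 were Col15a1 (edgeR adjusted p = 0.00312), Col7a1 (edgeR adjusted p = 0.00709), Col11a1 (edgeR adjusted p = 0.0117) and Col16a1 (edgeR adjusted p = 0.0221), and each was highest in the mean of pair 3. Dam means spanned a median of 0.99 on the log2 scale over the 22 members, and the largest difference within a pair had a median of 0.62. For 12 of 22 members the first exceeded the second. The same values over all genes are not given here, so these describe the members only. DESeq2 called 8 of 22 members for the dam, beside 33.4% of all genes tested. Without pair 2 edgeR called 2 of 22, beside 1.74% of all genes tested.

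Genes that fold, trim and crosslink collagen chains were examined as lists. Of 19 tested genes for chain modification and folding, 0 passed, and the median log2 difference was 0.04 beside 0.00 over all genes tested. Serpinh1, the collagen chaperone of the endoplasmic reticulum, measured 1979, 4243 and 4709 CPM in control against 2902, 4211 and 3575 CPM in high glucose. As for Col1a1, the control library of pair 1 was the lowest. P4ha1, a prolyl hydroxylase that stabilises the triple helix, had pair differences of 0.50, 0.27 and -0.29. Plod2, which hydroxylates lysines for crosslinks, was higher in each pair (0.45, 0.46 and 0.09, edgeR adjusted p = 1). The fitted log2 difference was 0.29 for Tmem38b, an ion channel of the reticulum, -0.20 for the transport coat gene Sec23a and 0.21 for P3h4.

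Of 14 tested genes for propeptide removal and crosslinking, 0 passed and the median was 0.03. Lox, which crosslinks fibrils, measured 79.5, 40.0 and 235.0 CPM in control against 165.4, 47.9 and 262.0 CPM in high glucose. It was higher in each pair, mostly in pair 1, at a log2 difference of 0.49 (SE 0.215, unadjusted p = 0.0451, edgeR adjusted p = 1). Bmp1, which removes the carboxyl propeptide, had a log2 difference of 0.03, the convertase gene Furin one of 0.38, Loxl4 one of 0.70 and Tll1 one of -0.40. Loxl4 changed sign between pairs, at -0.46, 2.3 and 0.70, with only 9 counts in the control library of pair 2. Furin had 0.37, -0.02 and 0.77 in the pairs, and Tll1 was lower in 3 of 3. Among 13 tested fibril and matrix partners 0 passed, at a median of 0.13. Sparc, a collagen-binding protein, had pair differences of 0.54, -0.23 and -0.70. For Lum, which binds fibrils and is also among the mesenchyme markers, they were 0.40, -0.73 and -0.93. The log2 difference was 0.67 for the laminin chain gene Lama5, 0.43 for the fibronectin gene Fn1 and 0.24 for Thbs2. Each was higher in 3 of 3 pairs, Lama5 by 0.4, 0.03 and 1.58.

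Degradation genes and receptors also held no gene that passed. Over 18 tested proteases and inhibitors the median was -0.05. Mmp9, a gelatinase, measured 74.6, 78.6 and 78.9 CPM in control against 44.5, 64.3 and 40.5 CPM in high glucose. Every control library lay above every high glucose library, at a log2 difference of -0.67 (SE 0.197, unadjusted p = 0.00657, edgeR adjusted p = 0.571), while the leukocyte markers were lower too. Mmp8, the neutrophil collagenase, had a log2 difference of -1.40 and Mmp3 one of -0.79. Mmp8 was lower in 3 of 3 pairs on 7 to 118 counts per library, while Mmp3 changed sign, at -1.47, 0.73 and -1.49. The matrix protease genes Mmp2 and Mmp14 had log2 differences of 0.17 and 0.18, and the inhibitor gene Timp1 had one of 0.30. The 6 tested receptors had a median of 0.22. Itgb1, the shared integrin beta chain and the one with the most counts, had a log2 difference of 0.23 and was higher in 3 of 3 pairs. The other log2 differences were -0.57 for Itga11, 0.31 for Itga1, 0.23 for Ddr1, 0.21 for Adgrg1 and 0.04 for Ddr2. Itga11 changed sign between pairs, at 0.21, -0.9 and -1.

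In the TGF-beta list, whose signals raise collagen genes in fibroblasts, 0 of 16 tested genes passed and the median was 0.17. Ctgf, a matricellular protein gene, measured 156.8, 95.3 and 285.2 CPM in control against 265.4, 158.1 and 625.3 CPM in high glucose. It was higher in 3 of 3 pairs, with log2 differences of 0.76, 0.73 and 1.13, but did not pass over all genes (fitted 0.87, SE 0.189, unadjusted p = 0.000849, edgeR adjusted p = 0.277). Col1a1 was lower in 2 of those pairs. The ligand gene Tgfb2 had a log2 difference of 0.51, the binding protein gene Ltbp2 one of 0.35 and the receptor gene Tgfbr2 one of -0.34. Tgfb2 had 1.13, -0.02 and 0.42 in the pairs, while Ltbp2 was higher and Tgfbr2 lower in 3 of 3.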

How the data were processed

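The authors deposited raw counts for each gene, from featureCounts 1.5.1 per the file headers (paired reads, strand setting 2, mapping quality of at least 10, rn6 refGene annotation). STAR 2.5 is named in the submitters' processing notes. The exon length column of the same files, another deposited value per the file headers, served for TPM and ratios. Groups came from the treatment label and pairs from the shared stem of the sample titles; the series design names the horns of a dam as pairs. Within pairs, deviations from the group means correlated across genes at 0.474, 0.621 and 0.413.

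All 12276 genes kept by filterByExpr were fitted with edgeR 4.0.16 in R 4.3.3 (TMM, robust quasi-likelihood F-test, dam plus treatment), and dam terms were tested in the same fit. DESeq2 1.42.0 and limma 3.58.1 (voom) were alternatives. The procedure was tested on simulated counts. Per-pair differences are log2 ratios of CPM. The span of dam means used log2 of CPM plus 0.5.

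Members, gene lists and tests were chosen with earlier results of these data known. In each class the 4 members with the highest mean TPM were described in every library, with members at an unadjusted p below 0.05, the 3 highest and lowest differences and those near the count limit. For pathway lists the 4 smallest p-values and preset genes were named. The promoters shown and further values were chosen after values were seen. Of 6 chain ratios planned, 2 could be computed and 1 was added. P-values of fits with the dam as a block measure the spread left between libraries once dam differences are taken out. Sign-flip p-values use the pair differences only. Each library pooled 2 pancreata.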

Additional observations from a re-analysis of the deposited data

How the results depend on the processing

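No collagen gene passed in any of the following settings, each time 0 members, and few genes of any kind did. Over all genes, 2 passed with RLE factors, 4 with upper-quartile factors and 2 with TMM without collagen genes. With no filter 18 passed, at a mean count of at least 50 it was 5, and with DESeq2 106. With voom 1 passed, with mesenchyme scaling 42, and without pair 1, 2 or 3 it was 18, 18 and 55. With no replicate block 0 genes of any kind passed, so 0 members was fixed there. At such shares 0 members passing says little about the members. An unadjusted p below 0.05 was met by 2 members. Members with a dam effect numbered 4 (22.8% of all genes), 8 with DESeq2 (33.4%), and 2 to 4 without 1 pair (2 without pair 2, where 1.74% of all genes passed). Leaving out 1 pair moved the difference in the share of counts (0.0348 percentage points for all members) over -0.287 to 0.269, over -0.245 to 0.166 for fibrillar and over -0.0674 to 0.0532 for other types. Outside acinar, erythroid and beta cell genes the fibrillar difference was -0.00501 (0.0135 with all genes), and as a log2 ratio that of other types was 0.022 (-0.00648 as a difference). Signs of small log2 differences turned without 1 pair, over -0.10 to 0.30 for Col3a1, -0.08 to 0.25 for Col5a1, -0.21 to 0.30 for Col18a1, -0.05 to 0.83 for Col9a2, -0.37 to 0.13 for Col6a2, -0.39 to 0.02 for Col15a1 and -0.17 to 0.02 for the ratio of Col5a3 to Col5a1. Col18a1 was -0.01 with no replicate block, and Col6a2 was 0.01 with mesenchyme scaling. Leaving out 1 pair also moved Col1a1 over -0.31 to 0, Col4a1 over 0.04 to 0.19, Col5a2 over 0.07 to 0.37 and Col16a1 over 0.16 to 0.44. The difference of Col26a1 stayed between -1.27 and -0.80 under these settings. The causes were not tested.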
